A study of Mus musculus with 4 samples.

Results

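Apoe, Clu and Apod encode 3 secreted lipid carriers of the brain, and they were chosen by gene symbol as 3 of the 27998 genes listed for every library. The data were UMI counts from single nuclei of mouse hippocampus, read with a droplet method that captures the 3′ end of transcripts. A UMI is a molecular tag that marks 1 captured RNA molecule. Each genotype was represented by 1 library. The P301S/EKO library came from 7 pooled hippocampi of mice that carry the P301S tau transgene and lack Apoe. The P301S library came from 8 pooled hippocampi of mice with the transgene and mouse Apoe. The EKO library came from 7 pooled hippocampi of Apoe-deficient mice without the transgene. The WT library came from 7 pooled hippocampi of mice with neither change. All mice were 9 months old and of the B6 strain. The labels give EKO without spelling it out; it is read here as loss of Apoe, against which the Apoe counts are set below. They name neither the promoter that drives the transgene nor the sex of the mice, and animals cannot be separated within a pool. The study had further genotypes that were not analysed here.

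With 1 library per genotype there was no replicate, so p-values are not given and nothing was tested. Levels are given as UMIs per 1000000 UMIs (CPM) summed over the nuclei of a class. The 95% intervals are exact Poisson intervals for levels, exact conditional binomial intervals for ratios and Clopper-Pearson intervals for shares. They cover counting error only and not the variation between mice or between preparations. A difference called beyond counting error is one whose interval does not include 1.

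Apolipoproteins are amphipathic proteins that wrap lipids into particles that can travel between cells. In the brain, ApoE is made mainly by astrocytes, is loaded with cholesterol and phospholipid by membrane transporters such as ABCA1, and is taken up through receptors of the LDL receptor family. Clusterin, the product of Clu and also called apolipoprotein J, is a secreted chaperone carried on astrocyte lipoproteins. Apolipoprotein D, the product of Apod, belongs to the lipocalins, which hold small lipids in a pocket, and is known from oligodendrocytes and perivascular cells.

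Apoe (ENSMUSG00000002985) lies on the minus strand at chr7:19696109-19699188 of GRCm38 in the GENCODE vM21 annotation, and its longest transcript has 4 exons and 1408 bases. Clu (ENSMUSG00000022037) lies on the plus strand at chr14:65968483-65981547, and its longest transcript has 9 exons. Apod (ENSMUSG00000022548) lies on the minus strand at chr16:31296192-31314808, and its longest transcript has 6 exons. The promoters of Apoe, the gene that was lost, and of Apod, which had its highest level in another class of nuclei, are shown. The sequences are the 250 bases before the annotated start, from RefSeq on GRCm38.p6, written 5′ to 3′ on the gene's own strand. Capitals mark CG dinucleotides.
Apoe promoter, chr7:19699189-19699438, minus strand: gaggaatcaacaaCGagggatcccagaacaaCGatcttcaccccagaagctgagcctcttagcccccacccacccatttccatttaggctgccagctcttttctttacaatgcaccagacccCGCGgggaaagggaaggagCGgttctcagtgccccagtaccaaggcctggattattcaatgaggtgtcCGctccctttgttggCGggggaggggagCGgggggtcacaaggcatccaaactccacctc
Apod promoter, chr16:31314809-31315058, minus strand: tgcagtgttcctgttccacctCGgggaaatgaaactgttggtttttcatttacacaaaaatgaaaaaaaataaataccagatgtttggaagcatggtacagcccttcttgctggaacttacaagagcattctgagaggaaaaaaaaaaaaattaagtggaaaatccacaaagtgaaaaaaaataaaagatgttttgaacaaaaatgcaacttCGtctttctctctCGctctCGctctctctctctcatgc
The Apoe stretch held 8 CG dinucleotides and 57.2% G or C. The Apod stretch held 4 and 36.4%, against medians of 6 and 52.4% over 32851 mouse promoters. The 300 bases around each start were searched on both strands for 8 motifs, and 0 matches were found in either promoter. The core promoter motif TATAAA stood in 13.6% of all promoters. The Sp1-type motif GGGCGG stood in 35.7% of them and the motif CCAAT in 37.4%. The E-box CACGTG was held by 7.15% and the AP-1-type motif TGANTCA by 7.81%. The CRE motif TGACGTCA was held by 1.79%. The repeat GAANNTTC, of the kind bound by heat shock factors, was held by 7.86%. The STAT-type motif TTCNNNGAA was held by 8.3%. No match says only that these letters were not in this window.

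The libraries held 3156 to 6767 barcodes and 8369762 to 14251675 UMIs. After filtering and removal of likely doublets, 5274 P301S/EKO, 2860 P301S, 5199 EKO and 5234 WT nuclei were kept. Their median depths were 1420.5, 2146.5, 1444 and 1904.5 UMIs per nucleus, so the EKO libraries were shallower than those with Apoe. Clusters were named from marker genes without using Apoe, Clu or Apod, which gave 11 classes, 9 of them with at least 50 nuclei in every library. The 12 astrocyte markers summed to 22996, 19837, 21337 and 13760 CPM in astrocyte-like nuclei of P301S/EKO, P301S, EKO and WT. In CA1 neuron-like nuclei they summed to 472, 551, 350 and 482 CPM. The 12 microglia markers summed to 8850, 6651, 8575 and 4124 CPM in microglia-like nuclei, and to 252, 418, 128 and 112 CPM in CA1 neuron-like ones. All 12 of each set were detected in CA1 neuron-like nuclei too, so detection alone does not set a class apart. These markers also named the classes. Any pair of libraries shared 19 to 69 barcodes, and leaving shared barcodes out moved 0 of 16 main ratios beyond its interval. Many nuclei outside the neuron classes held neuronal RNA. A nucleus was counted as mixed when its share of 8 neuronal transcripts was over 50% of the median CA1 neuron-like share. Mixed nuclei made up 4.95%, 8.13% and 9.18% of astrocyte-like nuclei in the P301S/EKO, P301S and EKO libraries, against 24.7% in the WT library. Among microglia-like nuclei the shares were 56.9%, 47.5%, 61.6% and 73.9% in the same order.

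Apoe was nearly absent from both EKO libraries, and in the libraries that had it the P301S library held 3.42 times the WT level. Over all kept nuclei the level was 19.8 CPM in P301S/EKO, 6489 CPM in P301S, 16.2 CPM in EKO and 1899 CPM in WT. Both EKO levels were far below those of the libraries with Apoe. The P301S/EKO level was 327-fold lower than the P301S level (interval 282 to 381), and the EKO level was 117-fold lower than the WT level (99.6 to 139). The interval of the 3.42-fold ratio of P301S to WT was 3.36 to 3.47. Class make-up differed between the libraries. With each class weighted as in the WT library and choroid plexus epithelium-like nuclei left out, Apoe was 4904 CPM in P301S and 1895 CPM in WT. At these weights it was 25.3 CPM in P301S/EKO and 21.6 CPM in EKO. The P301S level thus stayed above the WT level, by less than over all nuclei. The P301S/EKO and EKO levels did not differ beyond counting error (1.23-fold, 0.978 to 1.54).

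Astrocytes were the class with the highest Apoe level in all 4 libraries, ahead of microglia-like nuclei in P301S and of endothelial cell-like nuclei in the others, although in EKO the intervals of these 2 classes overlapped. In astrocyte-like nuclei the level was 300.9 CPM (236 to 378, from 74 UMIs in 202 nuclei) in P301S/EKO, 30009 CPM (8178 UMIs in 123 nuclei) in P301S, 186 CPM (132 to 254, from 39 UMIs in 196 nuclei) in EKO and 20324 CPM (10339 UMIs in 279 nuclei) in WT. Every astrocyte-like nucleus of the P301S and WT libraries held at least 1 Apoe UMI. With each nucleus thinned to 500 UMIs, which left out none, the share with Apoe was 12.4% in P301S/EKO, 100% in P301S, 7.65% in EKO and 97.8% in WT. The dentate granule neuron-like shares, set beside them as a rough measure of free RNA, were 0.701%, 64.3%, 0.667% and 32.8% at the same thinning. In the P301S library most neurons thus held an Apoe UMI, so levels are compared rather than shares of nuclei.

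**Figure D1:**
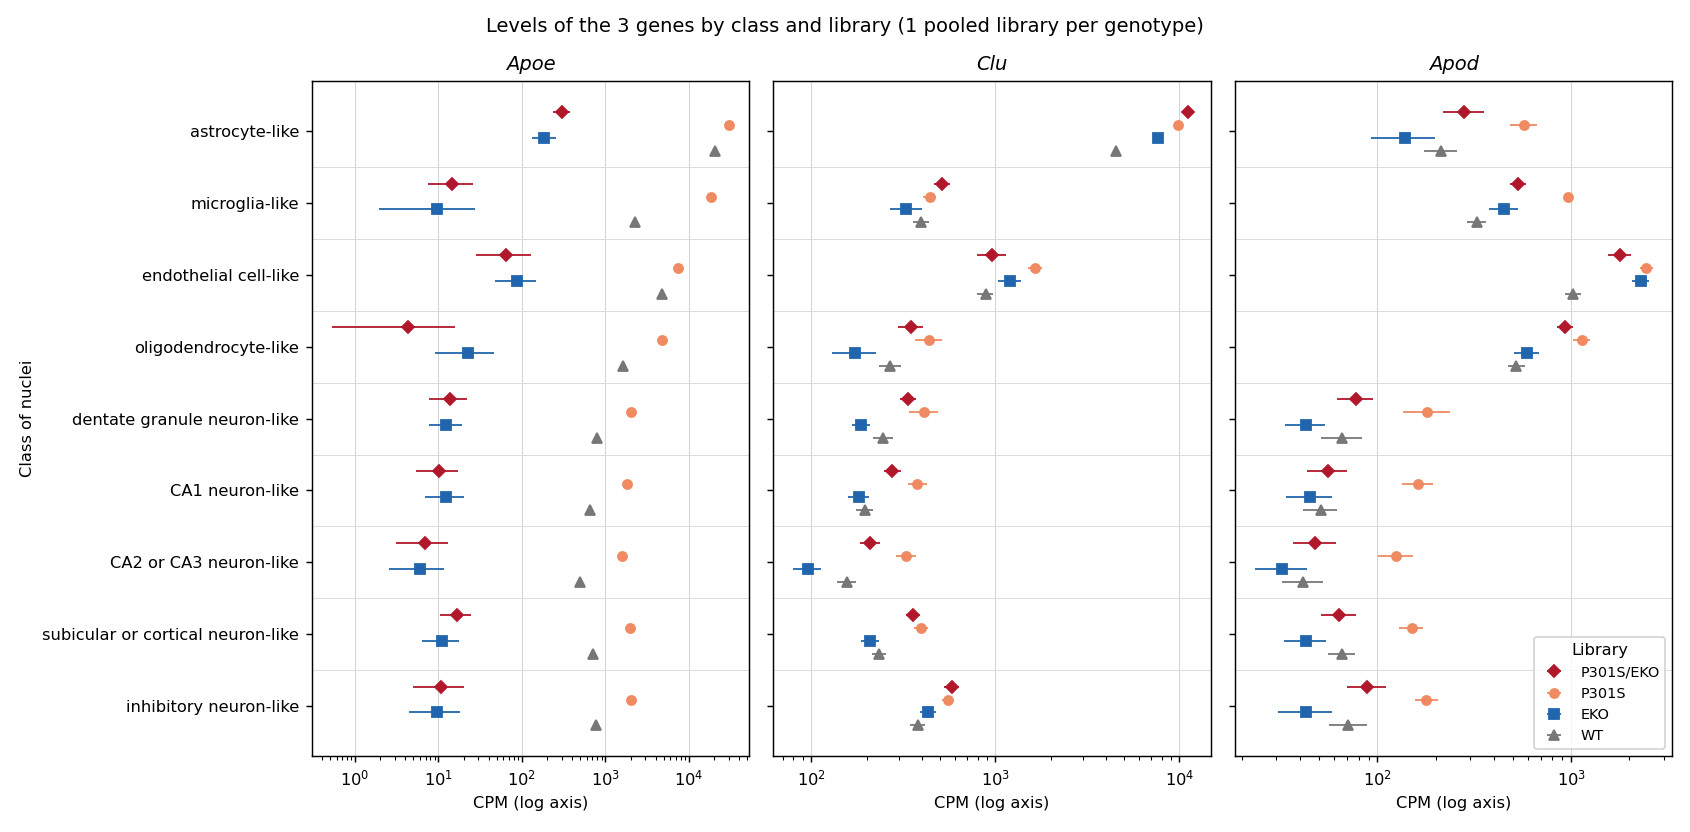
Level of Apoe, Clu and Apod in CPM (log axis) in each class of nuclei, with 1 point per library (P301S/EKO, P301S, EKO and WT) and bars for exact 95% Poisson intervals. Apoe is lower in P301S/EKO than in P301S and in EKO than in WT in all 9 classes, the smallest gap being 53.9-fold in endothelial cell-like nuclei. Clu peaks in astrocyte-like nuclei and Apod in endothelial cell-like nuclei of all 4 libraries.

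The class that differed most in Apoe between the P301S and WT libraries was the microglia-like one. Its level was 14.6 CPM (12 UMIs in 346 nuclei) in P301S/EKO, 18222 CPM (25821 UMIs in 324 nuclei) in P301S, 9.48 CPM (3 UMIs in 138 nuclei) in EKO and 2287 CPM (2278 UMIs in 211 nuclei) in WT. The P301S level was 7.97-fold the WT level (7.63 to 8.32). Microglia-like nuclei contributed 53.1% of the Apoe UMIs of the P301S library and 10.0% of those of the WT library. Astrocyte-like nuclei contributed 16.8% in P301S and 45.4% in WT, so the main source of Apoe UMIs was astrocyte-like in WT and microglia-like in P301S. Microglia-like nuclei were also a larger part of the nuclei, 11.3% in P301S and 4.03% in WT.

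The 7.97-fold ratio was read against the microglia markers and against disease-state transcripts. The 12 microglia markers summed to 6651 CPM in the P301S class and 4124 CPM in the WT class, and scaled to these markers the ratio on the log2 scale was 2.30 in place of 2.99. A set of 7 transcripts of late disease-state microglia (Spp1, Gpnmb, Itgax, Cst7, Lpl, Axl and Csf1), chosen after the values were seen, was used to divide the class. In P301S, Apoe was 18971 CPM in the 249 nuclei with at least 1 of these UMIs and 14195 CPM in the 75 nuclei without one. In WT, it was 2924 CPM in 48 nuclei with such a UMI and 1975 CPM in 163 nuclei without. The P301S level was thus 6.49-fold the WT level (6.08 to 6.93) among nuclei with late transcripts and 7.19-fold (6.74 to 7.67) among those without. Nuclei with a late transcript had more UMIs, with medians of 3651 against 2212 in P301S and 5668 against 3601 in WT, so the division also follows depth. The part of neuronal and other free RNA in these levels was not tested, and without mixed nuclei the log2 ratio was 2.88.

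In astrocyte-like nuclei the P301S level of Apoe was 1.48-fold the WT level (1.43 to 1.52), which did not hold in nuclei of like Gfap UMI count. Gfap encodes the filament protein that marks reactive astrocytes. In P301S, 98 of the 123 astrocyte-like nuclei held at least 2 Gfap UMIs and 14 held 0. In WT, 39 of the 279 held at least 2 and 195 held 0. Apoe was 32639 CPM in nuclei with at least 2 Gfap UMIs and 14985 CPM in those with 0 in P301S, a 2.18-fold difference (1.96 to 2.43). In WT it was 43817 CPM with at least 2 and 15248 CPM with 0, a 2.87-fold difference (2.75 to 3.00). Among nuclei with at least 2 Gfap UMIs, the P301S level was 1.34-fold lower than the WT level (1.29 to 1.40). Among nuclei with 0, it was 0.983-fold the WT level (0.882 to 1.09). Within each Gfap group Apoe was thus no higher in P301S than in WT, and the part of Gfap content and depth in the 1.48-fold ratio was not tested. The 12 astrocyte markers summed to 19837 CPM in the P301S class and 13760 CPM in the WT class, and scaled to them the log2 ratio of Apoe was 0.03 in place of 0.56.

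**Figure D2:**
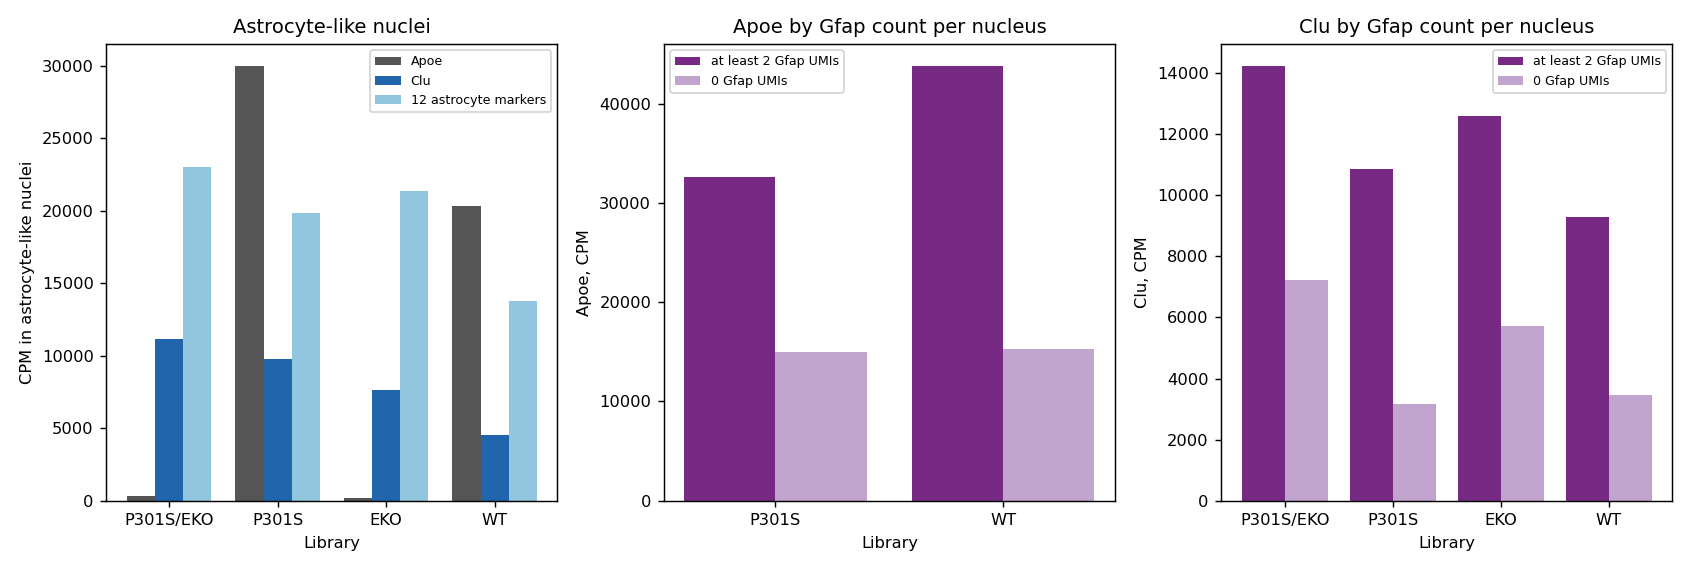
Left, level (CPM) of Apoe, Clu and the summed 12 astrocyte markers in astrocyte-like nuclei of P301S/EKO, P301S, EKO and WT; middle and right, Apoe and Clu levels (CPM) in nuclei with at least 2 Gfap UMIs and with 0. Bars are sums over the nuclei of 1 library, drawn without intervals; Clu was higher with at least 2 Gfap UMIs in all 4 libraries and Apoe in both libraries drawn.

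The other classes followed with lower Apoe levels, each higher in P301S than in WT when summed over the whole class. Endothelial cell-like nuclei held 64.5 CPM (8 UMIs) in P301S/EKO, 7366 CPM in P301S, 87.7 CPM (14 UMIs) in EKO and 4725 CPM in WT, with P301S 1.56-fold WT (1.47 to 1.66). This class joins several cell types. The ratio of P301S to WT was 1.15-fold (0.982 to 1.35) in its endothelial sub-cluster and 0.659-fold (0.598 to 0.727) in its pooled fibroblast sub-clusters. The larger fibroblast sub-cluster was at 0.958-fold (0.863 to 1.06), and the smaller one, with 3 WT nuclei, at 0.164-fold (0.124 to 0.218). The pooled mural sub-clusters were at 2.07-fold (1.89 to 2.26). Taken apart they were at 1.89-fold (1.61 to 2.21) and 1.26-fold (1.12 to 1.42), both below the pooled ratio. The mix of sub-clusters differed between the libraries. Oligodendrocyte-like nuclei held 4.33 CPM (2 UMIs) in P301S/EKO, 4793 CPM in P301S, 22.4 CPM (7 UMIs) in EKO and 1635 CPM in WT, with P301S 2.93-fold WT (2.72 to 3.16). The neuron classes were also summed with the nuclei that the markers left unnamed, 626 in P301S/EKO, 362 in P301S, 566 in EKO and 504 in WT. Together these held 11.0 CPM in P301S/EKO, 1944 CPM in P301S, 9.55 CPM in EKO and 681 CPM in WT, with P301S 2.85-fold WT (2.76 to 2.95). The 5 neuron classes lay between 1576 and 2030 CPM in P301S and between 497 and 793 CPM in WT, and within WT the dentate, inhibitory and subicular or cortical classes overlapped in their intervals. The number of Apoe UMIs per Clu UMI was 4.86 in CA1 neuron-like and 4.95 in dentate granule neuron-like nuclei of the P301S library, against 3.07 in its astrocyte-like and 41.5 in its microglia-like nuclei. How much of the neuronal Apoe was free RNA was not tested.

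The residual Apoe UMIs in the EKO libraries were few, but they were not spread evenly over classes. The P301S/EKO library held 176 Apoe UMIs in 150 of its nuclei, 141 of which held 1 UMI. The EKO library held 143 in 130 nuclei, 121 of which held 1 UMI. These counts are of kept nuclei: the 1493 barcodes removed from P301S/EKO by the filters or as likely doublets held a further 167 Apoe UMIs, and the 783 removed from EKO held 44. In P301S/EKO, 42.0% of these UMIs lay in astrocyte-like nuclei, which are 3.83% of its nuclei, and in EKO it was 27.3% in 3.77%. The astrocyte-like level was 22.2-fold that of dentate granule neuron-like nuclei in P301S/EKO (12.8 to 40.8) and 15.0-fold in EKO (8.60 to 26.8). These ratios compare with 14.8-fold in P301S (13.6 to 16.1) and 25.6-fold in WT (23.9 to 27.5). The intervals of both EKO libraries were wide and included the ratios of P301S and WT.

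Microglia-like nuclei showed no such excess beyond counting error. Their level was 1.08-fold that of dentate granule neuron-like nuclei in P301S/EKO (0.466 to 2.43) and 0.763-fold in EKO (0.146 to 2.56), against 8.98-fold in P301S (8.28 to 9.76) and 2.88-fold in WT (2.66 to 3.12). The EKO interval thus reached close to the WT ratio. Endothelial cell-like nuclei lay at 4.76-fold the dentate level in P301S/EKO (1.76 to 11.8) and 7.05-fold in EKO (3.32 to 14.5), beside 3.63-fold in P301S (3.31 to 3.98) and 5.96-fold in WT (5.50 to 6.46). Shared barcodes held none of it: 65 P301S/EKO and 67 EKO nuclei had a barcode that was also in the P301S or WT library, and 0 of them held an Apoe UMI. The labels do not give the form of the Apoe deletion, so whether these UMIs come from a remaining part of the locus was not tested.

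One nucleus weighed on the residual level. An astrocyte-like nucleus of the P301S/EKO library with 967 UMIs held 18 Apoe UMIs, 24.3% of those in its class. The largest count in a nucleus of the EKO library was 5. With the top nucleus of each library left out, the astrocyte-like level was 229 CPM (173 to 297) in P301S/EKO and 167 CPM (115 to 233) in EKO. The P301S/EKO level was 1.62-fold the EKO level (1.08 to 2.45), a log2 ratio of 0.69, and without the top nuclei the log2 ratio was 0.46.

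**Figure D3:**
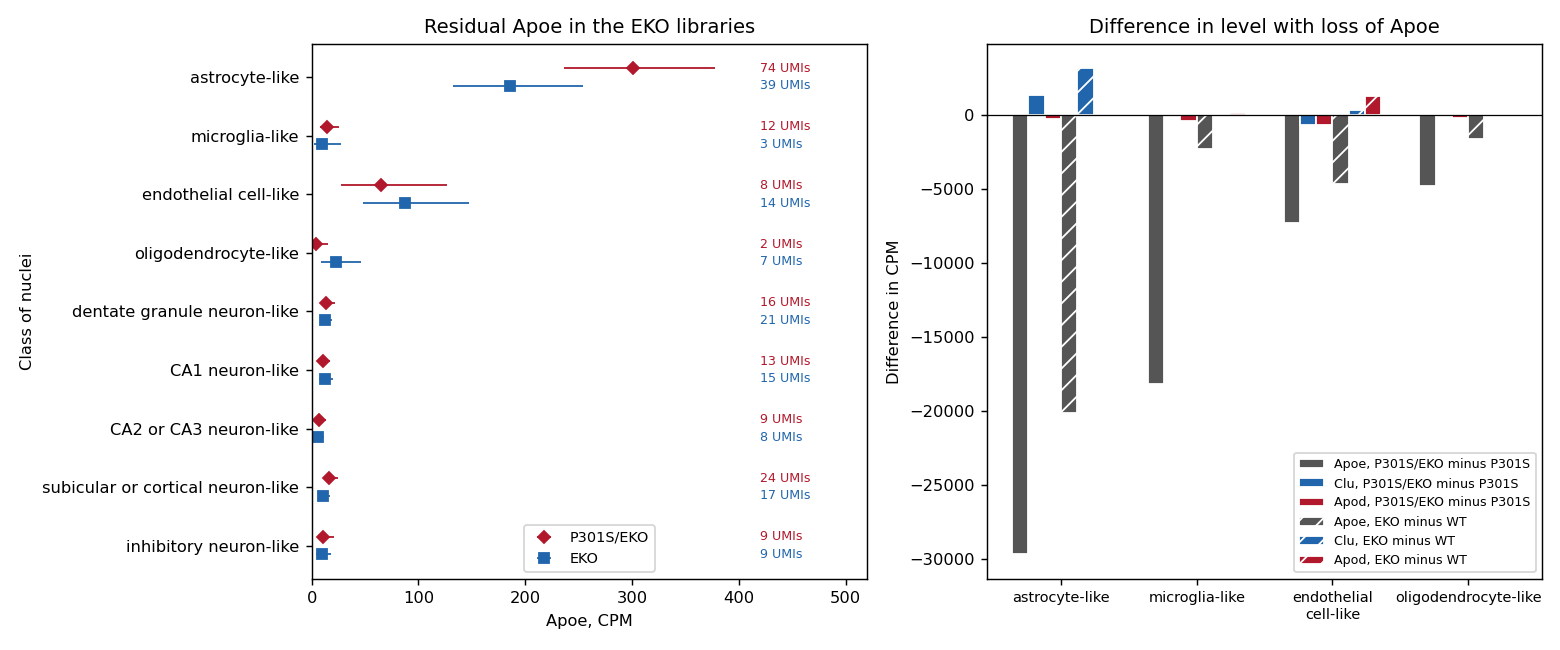
Left, residual Apoe level (CPM) with exact 95% Poisson intervals and UMI numbers per class in the P301S/EKO and EKO libraries. Right, difference in CPM of Apoe, Clu and Apod between P301S/EKO and P301S (plain bars) and between EKO and WT (hatched bars): the loss of Apoe exceeds any gain of Clu or Apod in all 4 classes drawn.

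The genes beside Apoe on chromosome 7 had no loss like that of Apoe, although Bcam, Apoc1 and Pvrl2 were lower in both EKO libraries. The nearest one is Tomm40, a mitochondrial import pore 2125 bases away, with 128 CPM in P301S/EKO, 112 CPM in P301S, 140 CPM in EKO and 99.0 CPM in WT over all nuclei. Clptm1, a membrane protein gene 31076 bases away, had 134, 121, 122 and 124 CPM in the same libraries. Apoc1, an apolipoprotein gene 3449 bases away, was read with 13, 31, 3 and 8 UMIs, too few to set a level per class. Over all nuclei its levels were 1.47, 4.14, 0.339 and 0.667 CPM. The Apoc1 intervals of P301S/EKO and P301S did not overlap, and those of EKO and WT did. Apoc4, at 14630 bases, had 65, 65, 50 and 42 UMIs in the same order, Apoc2 had 0 in all 4 libraries, and Pvrl2 (Nectin2) had 76, 85, 60 and 85. The Pvrl2 levels were 8.57, 11.3, 6.79 and 7.08 CPM, with intervals that overlapped between each EKO library and its counterpart. Bcam, at 56943 bases, had 39 UMIs in P301S/EKO, 109 in P301S, 53 in EKO and 131 in WT. Taken as 3 UMIs in a library, the limit that a count of 0 allows was a level of 0.338, 0.401, 0.339 and 0.25 CPM for Apoc2 in P301S/EKO, P301S, EKO and WT.

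Clu was highest in astrocyte-like nuclei of every library, and there each library without Apoe exceeded its counterpart with Apoe. The level was 11132 CPM (10719 to 11557) in P301S/EKO, 9776 CPM (9408 to 10154) in P301S, 7669 CPM (7299 to 8054) in EKO and 4519 CPM (4336 to 4708) in WT. No 2 of the 4 intervals overlapped. The EKO level was 1.70-fold the WT level (1.59 to 1.81), and the P301S/EKO level was 1.14-fold the P301S level (1.08 to 1.20), a ratio that turned to -0.035 on the log2 scale with equal weight per nucleus. With the transgene, Clu was 2.16-fold higher in P301S relative to WT (2.04 to 2.29) and 1.45-fold higher in P301S/EKO relative to EKO (1.36 to 1.54). The median astrocyte-like nucleus held 9 Clu UMIs in P301S/EKO, 21 in P301S, 5 in EKO and 6 in WT, an order that differs from that of CPM, and nuclei were deepest in the P301S library.

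The astrocyte markers differed in the same direction between these libraries. The 12 astrocyte markers summed to 22996 CPM in P301S/EKO, 19837 CPM in P301S, 21337 CPM in EKO and 13760 CPM in WT, and neuronal transcripts to 1512, 1391, 1718 and 3035 CPM. The marker sum was 1.55-fold higher in EKO relative to WT and 1.16-fold higher in P301S/EKO relative to P301S. Scaled to it, Clu in EKO over WT was 0.13 on the log2 scale in place of 0.76, and in P301S/EKO over P301S it was -0.03 in place of 0.19. The 2.16-fold difference between P301S and WT kept a log2 ratio of 0.59 after this scaling, and P301S/EKO over EKO kept 0.43.

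Within groups of like Gfap UMI count, Clu was higher without Apoe in both backgrounds. Among nuclei with at least 2 Gfap UMIs it was 14234 CPM in P301S/EKO (79 nuclei), 10862 CPM in P301S (98), 12594 CPM in EKO (27) and 9287 CPM in WT (39). Among nuclei with 0 Gfap UMIs it was 7227 CPM in P301S/EKO (79), 3153 CPM in P301S (14), 5706 CPM in EKO (140) and 3459 CPM in WT (195). The ratio of P301S/EKO to P301S was 1.31-fold (1.23 to 1.39) with at least 2 Gfap UMIs and 2.29-fold (1.80 to 2.95) with 0. The ratio of EKO to WT was 1.36-fold (1.21 to 1.52) and 1.65-fold (1.51 to 1.81) in the same groups. The P301S level, in contrast, was 1.17-fold the WT level (1.07 to 1.27) with at least 2 Gfap UMIs and 0.912-fold (0.714 to 1.15) with 0. Nuclei of the 2 Gfap groups also differed in depth, and so did the libraries within a group. With at least 2 Gfap UMIs the median depths were 1429 UMIs in P301S/EKO, 1947 in P301S, 1256 in EKO and 1682 in WT. With 0 they were 813, 1384.5, 786.5 and 1399 in the same order. A like Gfap count is thus not a like Gfap content, and the part of depth in these ratios was not tested.

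Outside astrocyte-like nuclei, Clu did not follow the loss of Apoe in 1 direction. In endothelial cell-like nuclei it was 960 CPM in P301S/EKO, 1647 CPM in P301S, 1202 CPM in EKO and 885 CPM in WT. It was 1.72-fold lower in P301S/EKO relative to P301S (1.40 to 2.12) and 1.36-fold higher in EKO relative to WT (1.14 to 1.62). The second direction turned within parts of the class, where EKO over WT was 0.538-fold (0.408 to 0.706) in the fibroblast sub-clusters, 0.591-fold (0.183 to 1.49, on 5 EKO UMIs) in the endothelial one and 1.57-fold (1.22 to 2.00) in the mural ones. P301S/EKO over P301S was 0.744-fold (0.552 to 0.990), 0.934-fold (0.592 to 1.45) and 0.397-fold (0.25 to 0.605) in the same 3 parts. The mural sub-clusters taken apart were at 0.683-fold (0.376 to 1.16) and 1.41-fold (1.04 to 1.90) in EKO over WT. In P301S/EKO over P301S they were at 0.927-fold (0.478 to 1.75) and 0.513-fold (0.218 to 1.04, on 8 UMIs in 3 P301S/EKO nuclei). Both pooled mural ratios lay outside the range of these parts, and the mix of sub-clusters differed between the libraries. In microglia-like nuclei Clu was 515 CPM in P301S/EKO, 439 CPM in P301S, 329 CPM in EKO and 395 CPM in WT. P301S/EKO over P301S was at 1.17-fold (1.03 to 1.33), and EKO over WT at 0.833-fold (0.665 to 1.04), the second not beyond counting error. For the transgene, P301S/EKO over EKO was at 1.57-fold (1.26 to 1.96). P301S over WT was at 1.11-fold (0.979 to 1.27), not beyond counting error. These microglia-like levels were 1.07- to 1.77-fold the dentate levels of the same library. In oligodendrocyte-like nuclei Clu was 348 CPM in P301S/EKO, 435 CPM in P301S, 173 CPM in EKO and 269 CPM in WT, all within 0.930- to 1.10-fold of the dentate level. Neuron classes differed among themselves, and CA2 or CA3 neuron-like nuclei held less Clu, 209, 329, 95.6 and 156 CPM in P301S/EKO, P301S, EKO and WT, so a ratio to neurons depends on the class taken. Over the neuron classes and the unnamed nuclei together, Clu was 334 CPM in P301S/EKO, 430 CPM in P301S, 204 CPM in EKO and 233 CPM in WT. Inhibitory neuron-like nuclei were the highest of the neuron classes with 578, 554, 431 and 379 CPM.

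Over all nuclei Clu was lower without Apoe, opposite to the astrocyte-like class. It was 666 CPM in P301S/EKO and 838 CPM in P301S, 1.26-fold lower, and 404 CPM in EKO and 459 CPM in WT, 1.14-fold lower. Class make-up differed between the libraries. With each class weighted as in the WT library, Clu came to 835 CPM in P301S/EKO, 857 CPM in P301S, 569 CPM in EKO and 457 CPM in WT. At equal weights the EKO library was thus above the WT library and the P301S/EKO library near the P301S library.

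**Figure D4:**
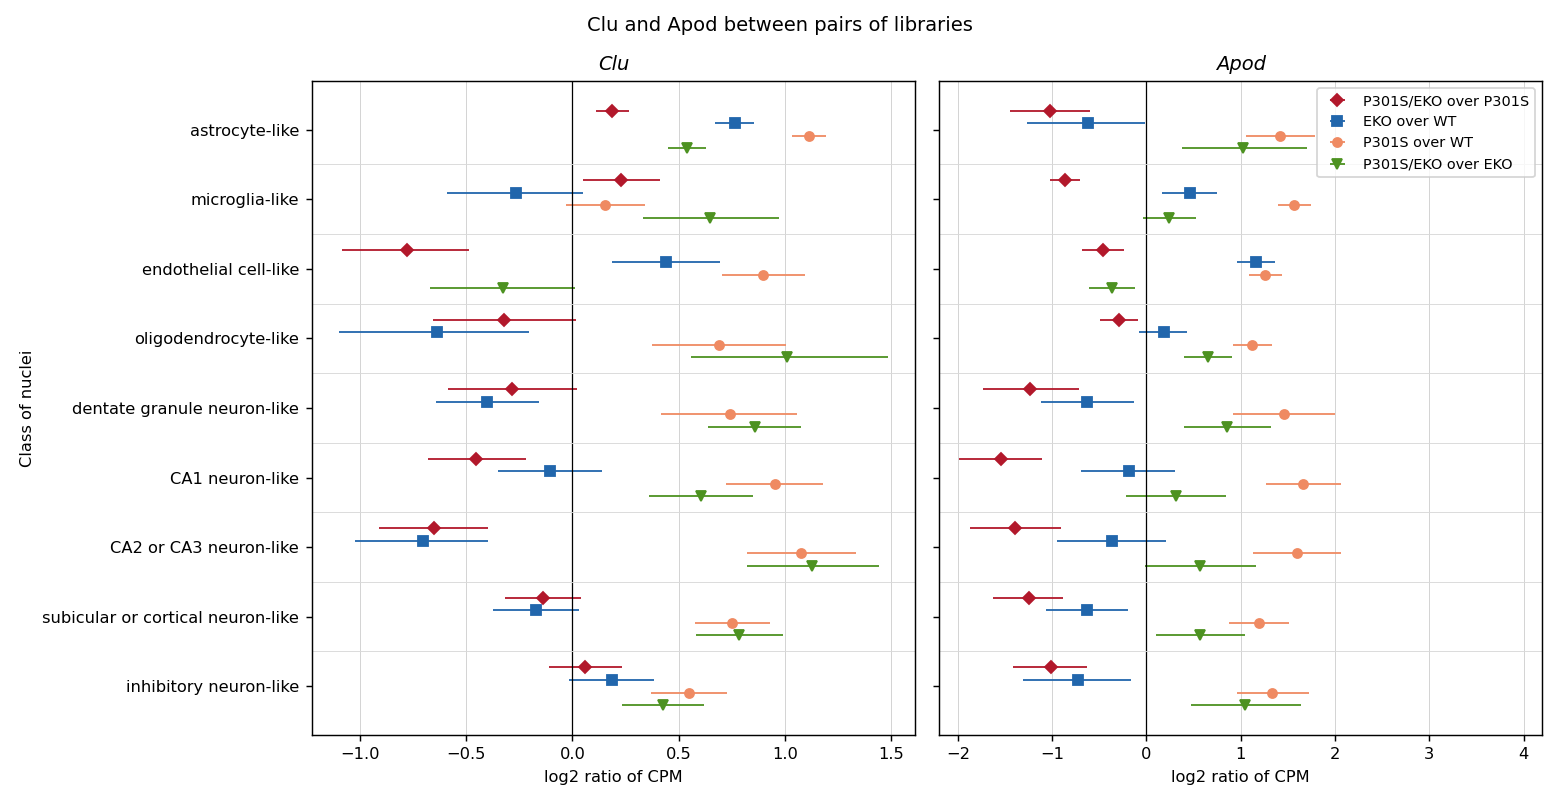
Log2 ratio of Clu and Apod levels for 4 pairs of libraries in each class of nuclei, with exact 95% intervals for counting error only. In astrocyte-like nuclei all 4 Clu ratios are above 0 (that of P301S/EKO over P301S falls just under 0 with equal weight per nucleus or scaled to markers), while Apod in P301S over WT is above 0 in all 9 classes and Apod in P301S/EKO over P301S below 0 in all 9.

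Apod was highest in endothelial cell-like nuclei and next in oligodendrocyte-like nuclei of every library, and was higher in P301S than in WT in all 9 classes. In EKO the intervals of oligodendrocyte-like (510 to 684 CPM) and microglia-like nuclei (378 to 529 CPM) overlapped. In endothelial cell-like nuclei the level was 1782 CPM (221 UMIs in 96 nuclei) in P301S/EKO, 2447 CPM (719 UMIs in 131 nuclei) in P301S, 2292 CPM (366 UMIs in 120 nuclei) in EKO and 1021 CPM (456 UMIs in 163 nuclei) in WT. The WT library was the low one and the other 3 lay between 1782 and 2447 CPM. Apod was 2.40-fold higher in P301S relative to WT (2.13 to 2.70) and 2.24-fold higher in EKO relative to WT (1.95 to 2.58). It was 1.37-fold lower in P301S/EKO relative to P301S (1.18 to 1.60) and 1.29-fold lower in P301S/EKO relative to EKO (1.09 to 1.53).

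These endothelial values rested on a mixed class and on single nuclei. The class joined endothelial cells with mural cells and fibroblasts, which separated into 5 sub-clusters when it was clustered again. The fibroblast-like sub-clusters held 34 P301S/EKO, 60 P301S, 55 EKO and 28 WT nuclei, with Apod at 3712, 2930, 4026 and 2088 CPM. The endothelial cell-like sub-cluster held 34, 39, 22 and 50 nuclei, with Apod at 519, 478, 200 and 292 CPM, below oligodendrocyte-like nuclei of the same library in all 4. The first rank of the whole class therefore does not hold for its endothelial sub-cluster. A small sub-cluster led by the smooth muscle genes Acta2, Myl9 and Tagln held 3, 14, 15 and 12 nuclei, with Apod at 5801, 5615, 3287 and 3565 CPM. The endothelial sub-cluster was thus the low one of these 3 groups in every library, and a further mural sub-cluster of 25, 18, 28 and 73 nuclei lay at 1076, 1030, 705 and 477 CPM.

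In EKO over WT the direction of the Apod difference depended on the sub-cluster, while in P301S/EKO over P301S it was the same in all 5. In each of the 5 sub-clusters the P301S/EKO level was 1.03- to 1.11-fold the P301S level, with every interval including 1, although the class as a whole was 1.37-fold lower. The larger fibroblast-like sub-cluster was 2.49-fold higher in EKO relative to WT (1.93 to 3.25), while the endothelial sub-cluster stood at 0.687-fold (0.211 to 1.75, on 5 EKO UMIs). In P301S over WT the endothelial sub-cluster was 1.64-fold higher (1.02 to 2.64) and the larger fibroblast-like one 2.05-fold (1.60 to 2.65). The mural ones were also higher, 2.16-fold (1.52 to 3.04) and 1.58-fold (1.32 to 1.88). The smaller fibroblast-like sub-cluster, with 3 WT nuclei, went the other way. It was at 0.340-fold (0.164 to 0.771) in P301S over WT and 0.248-fold (0.0850 to 0.698) in EKO over WT. A single P301S nucleus held 227 of the 719 Apod UMIs of the class, 31.6%. Without the top nucleus of each library the class levels were 1612 CPM in P301S/EKO, 1752 CPM in P301S, 2164 CPM in EKO and 864 CPM in WT. The log2 ratio of P301S/EKO to P301S was then -0.12 in place of -0.46, and that of P301S to WT was 1.02 in place of 1.26.

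**Figure D5:**
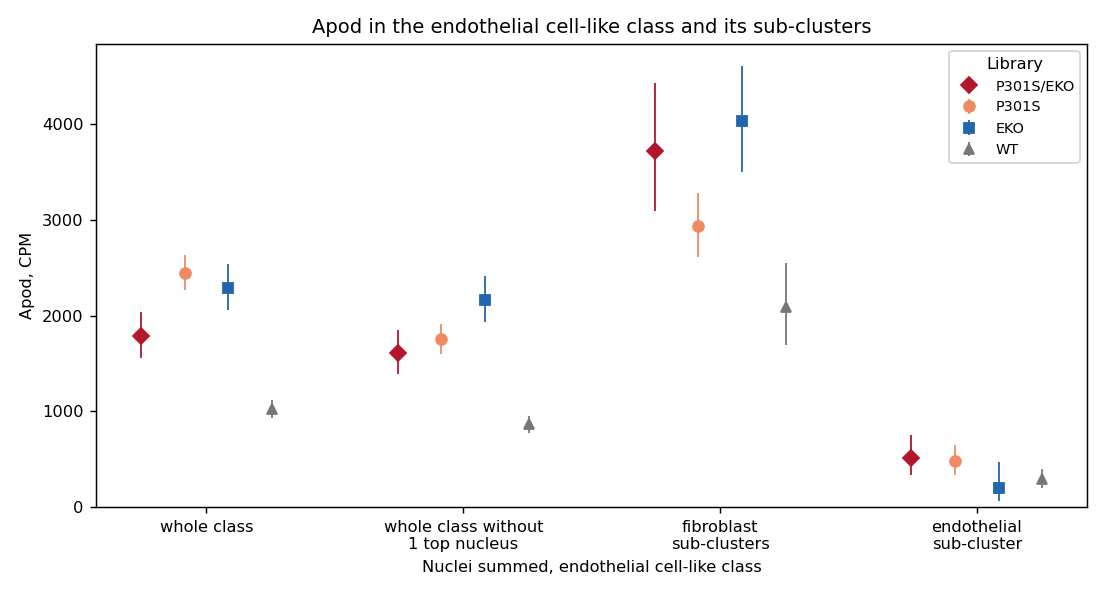
Apod level (CPM) with exact 95% Poisson intervals in P301S/EKO, P301S, EKO and WT, for the whole endothelial cell-like class, the class without the top nucleus of each library, its fibroblast sub-clusters and its endothelial sub-cluster. The fibroblast sub-clusters lie above the endothelial one in all 4 libraries, and the P301S level is 2447 CPM with its top nucleus and 1752 CPM without it.

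In oligodendrocyte-like nuclei, the class with the next highest level, Apod was 928 CPM (429 UMIs in 303 nuclei) in P301S/EKO, 1136 CPM (366 UMIs in 136 nuclei) in P301S, 592 CPM (185 UMIs in 189 nuclei) in EKO and 522 CPM (417 UMIs in 305 nuclei) in WT. Both transgenic libraries were above both libraries without the transgene. Apod was 2.18-fold higher in P301S relative to WT (1.89 to 2.51) and 1.57-fold higher in P301S/EKO relative to EKO (1.32 to 1.87). It was 1.22-fold lower in P301S/EKO relative to P301S (1.06 to 1.41), and EKO over WT was 1.13-fold (0.949 to 1.35), not beyond counting error. The largest count in 1 nucleus was 17, 13, 8 and 8 UMIs in P301S/EKO, P301S, EKO and WT.

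In microglia-like nuclei Apod was 529 CPM in P301S/EKO, 965 CPM in P301S, 449 CPM in EKO and 325 CPM in WT. It was 2.97-fold higher in P301S relative to WT (2.63 to 3.36), 1.82-fold lower in P301S/EKO relative to P301S (1.63 to 2.04) and 1.38-fold higher in EKO relative to WT (1.12 to 1.69). Late disease-state transcripts did not separate Apod: in P301S it was 959 CPM with such a UMI and 995 CPM without. This class also held oligodendrocyte RNA. The 10 oligodendrocyte markers summed to 5337 CPM in P301S/EKO, 4731 CPM in P301S, 5661 CPM in EKO and 3879 CPM in WT microglia-like nuclei, against 8990, 7463, 7657 and 6014 CPM in oligodendrocyte-like nuclei of the same libraries. All 10 markers were detected in each library, and their part in the Apod level of microglia-like nuclei was not tested.

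Apod was lowest in the neuron classes, between 47.7 and 88.4 CPM in P301S/EKO, 125 and 181 CPM in P301S, 32.1 and 44.6 CPM in EKO and 41.3 and 70.9 CPM in WT. The neuron classes and the unnamed nuclei together held 64.3 CPM in P301S/EKO, 160 CPM in P301S, 40.1 CPM in EKO and 57.6 CPM in WT. The P301S level was 2.77-fold the WT level (2.48 to 3.10), and EKO was 1.44-fold lower than WT (1.25 to 1.66). Over all nuclei Apod was 184 CPM in P301S/EKO, 468 CPM in P301S, 118 CPM in EKO and 156 CPM in WT, 3.00-fold higher in P301S relative to WT (2.83 to 3.17). Choroid plexus transcripts were also highest in P301S and lowest in EKO. Choroid plexus epithelium-like nuclei numbered 17, 43, 0 and 10 in P301S/EKO, P301S, EKO and WT, and 8 choroid plexus markers summed to 302, 947, 94.9 and 319 CPM in CA1 neuron-like nuclei. Their part in the Apod levels was not tested, and at the WT class weights Apod was 235, 399, 200 and 156 CPM in the same order.

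Neither Clu nor Apod took the place of Apoe in amount. In astrocyte-like nuclei, Apoe in EKO minus WT was -20138 CPM, Clu was 3150 CPM higher and Apod differed by -73.9 CPM. The gain of Clu thus amounted to 15.6% of the lost Apoe UMIs, and scaled to the astrocyte markers the Clu ratio behind it was 0.13 on the log2 scale in place of 0.76. In P301S/EKO minus P301S, Apoe differed by -29708 CPM, Clu by 1356 CPM and Apod by -288 CPM, and the Clu gain amounted to 4.57%. There was no such gain with equal weight per nucleus or scaled to the astrocyte markers, with log2 ratios of -0.035 and -0.026. Each UMI stands for 1 captured transcript end, so these shares compare captured molecules and not protein.

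In endothelial cell-like nuclei the Apod gain in EKO over WT was 1271 CPM, 27.4% of the lost Apoe, and the Clu gain was 318 CPM, 6.85%. Neither gain was seen in the endothelial sub-cluster, where Apod differed by -91.4 CPM and Clu by -139 CPM. Each rested on 5 EKO UMIs, with a ratio interval that included 1. In the pooled fibroblast sub-clusters Apod differed by 1938 CPM and Clu by -1453 CPM. Apod differed by 3048 CPM in the larger one and by -1928 CPM in the smaller one, with 3 WT nuclei. Both gains were seen in the pooled mural sub-clusters, with 633 CPM for Apod and 432 CPM for Clu. In the larger and smaller mural sub-cluster, Apod differed by 228 and -277 CPM and Clu by -159 and 677 CPM. In P301S/EKO against P301S both genes differed downward in the whole class, Clu by -688 CPM and Apod by -665 CPM. In microglia-like nuclei of EKO minus WT, Apod differed by 124 CPM, 5.43% of the lost Apoe, and Clu by -65.8 CPM. In P301S/EKO minus P301S, Clu differed by 75.7 CPM, 0.416% of the lost Apoe, and Apod by -435 CPM. The sum of Clu and Apod was 11413 CPM in P301S/EKO and 10344 CPM in P301S astrocyte-like nuclei, and 7808 CPM in EKO and 4732 CPM in WT ones. The sum of all 3 genes stayed at 11713 CPM in P301S/EKO against 40354 CPM in P301S, and at 7994 CPM in EKO against 25055 CPM in WT.

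Of 18 further apolipoprotein genes, none reached the 20 UMIs over 2 libraries that a ratio required in any of the 4 astrocyte-like comparisons. They summed to 48.8 CPM (12 UMIs) in P301S/EKO, 80.7 CPM (22 UMIs) in P301S, 43.0 CPM (9 UMIs) in EKO and 39.3 CPM (20 UMIs) in WT astrocyte-like nuclei. In microglia-like nuclei 2 were measured, Apoc4 and the mitochondrial Apoo, and only in the comparisons that include P301S. In astrocyte-like nuclei these sums stand beside Apoe differences of -29708 CPM in P301S/EKO minus P301S and -20138 CPM in EKO minus WT, so the 18 genes together gave no gain near that amount.

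The genes that load and take up lipoproteins were counted next, and a count past 1.5-fold was set against the share of all measured genes past the same ratio. Listed genes needed 20 UMIs over both libraries and the genes behind the shares 50. The thresholds are thus unlike, and listed genes of low count pass 1.5-fold more easily by counting error. In astrocyte-like nuclei of P301S over WT, 5 of the 12 measured genes of lipidation and sterol handling were at least 1.5-fold higher and 1 lower, against 19.8% and 17.5% of all genes. With median-of-ratios scaling these counts were 3 and 2. Abca1, the transporter that loads cholesterol onto ApoE, was 264 CPM in P301S and 47.2 CPM in WT, 5.60-fold higher (3.49 to 9.30). Srebf1, a transcription factor of lipid synthesis, was 382 CPM in P301S and 153 CPM in WT, 2.49-fold higher (1.84 to 3.38). In P301S/EKO over EKO, 3 of 11 were higher and 1 lower, against 16.1% and 11.8%, and Srebf1 was 289 CPM in P301S/EKO and 119 CPM in EKO, 2.42-fold higher (1.51 to 3.98). In P301S/EKO over P301S, 3 of 11 were higher and 4 lower, against 9.39% and 10.5%. In EKO over WT, 2 of 11 were higher and 0 lower, against 12.5% and 13.6%, with no member's interval wholly beyond 1.5-fold.

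Microglia-like nuclei gave the same transporter. In P301S over WT, 7 of 17 measured genes of the list were at least 1.5-fold higher and 1 lower, against 13.5% and 7.4% of all genes. Abca1 was 86.8 CPM in P301S and 23.1 CPM in WT, 3.76-fold higher (2.39 to 6.15). Lipoprotein lipase, Lpl, was 66.3 CPM in P301S and 25.1 CPM in WT, 2.64-fold higher (1.69 to 4.29), and the lysosomal sterol carrier Npc2 was 164 CPM and 73.3 CPM, 2.24-fold (1.72 to 2.96). In P301S/EKO over P301S, 1 of 17 was higher and 5 lower, against 5.23% and 13.5%, and Abca1 was 31.7 CPM in P301S/EKO and 86.8 CPM in P301S, 2.74-fold lower (1.78 to 4.36). In P301S/EKO over EKO, 4 of 14 were higher and 3 lower, against 9.15% and 6.0%. In EKO over WT, 0 of 15 were higher and 2 lower, against 7.75% and 13.7%. The microglia-like P301S/EKO level of Abca1 was close to that of EKO, 31.6 CPM.

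Of 13 lipoprotein receptor genes, 5 to 8 were measured per comparison, and Trem2 was the 1 member with an interval wholly beyond 1.5-fold in either class. In astrocyte-like nuclei, 2 of 7 were at least 1.5-fold higher and 1 lower in P301S over WT, against 19.8% and 17.5% of all genes. In EKO over WT, 1 of 8 was higher and 1 lower, against 12.5% and 13.6%. In microglia-like nuclei, 1 of 8 was higher and 1 lower in P301S over WT, against 13.5% and 7.4%. The counts were the same in EKO over WT, against 7.75% and 13.7%. The ratios of P301S/EKO to P301S and to EKO gave 0 higher and at most 1 lower in each class. Trem2, a microglial receptor that binds lipids and ApoE, was 434 CPM in P301S/EKO, 401 CPM in P301S, 360 CPM in EKO and 174 CPM in WT microglia-like nuclei. It was 2.31-fold higher in P301S relative to WT (1.94 to 2.75) and 2.07-fold higher in EKO relative to WT (1.62 to 2.64). The microglia markers of this class summed to 8850, 6651, 8575 and 4124 CPM in the same libraries, with WT again lowest. Among the other lipocalins, Ptgds, a prostaglandin synthase that also binds small lipids, was the 1 measured in astrocyte-like nuclei. In astrocyte-like nuclei it was 610 CPM in P301S/EKO, 2807 CPM in P301S, 682 CPM in EKO and 755 CPM in WT, 4.603-fold lower in P301S/EKO relative to P301S (3.86 to 5.52) and 3.72-fold higher in P301S relative to WT (3.29 to 4.21). Ptgds in P301S over WT was also 2.85-fold in oligodendrocyte-like nuclei (2.61 to 3.10), 3.28-fold in CA1 neuron-like nuclei (2.80 to 3.84) and 2.80-fold in dentate granule neuron-like nuclei (2.29 to 3.43). The 8 choroid plexus markers summed to 1468 CPM in P301S/EKO, 1717 CPM in P301S, 110 CPM in EKO and 497 CPM in WT astrocyte-like nuclei, and their part in the Ptgds levels was not tested.

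The genes with the level pattern most like each of the 3 were taken by Pearson's r of log2(CPM + 10) over class sums. For Apoe, over 19 class sums of P301S and WT, these were Cd63 (0.965), Srebf1 (0.927), Pbxip1 (0.916), Sat1 (0.916) and Spsb2 (0.914) of 12804 genes. For Clu, over 39 class sums of all 4 libraries, they were Aldoc (0.965), Aqp4 (0.963), Tmem47 (0.960), Id2 (0.958) and Fgfr3 (0.958) of 13828 genes. Aldoc, Aqp4 and Fgfr3 are among the markers that named the astrocyte-like class. For Apod they were Ptgds (0.976), Mcam (0.925), Ppp1r14a (0.918), Rasgrp3 (0.890) and Mal (0.889). The points share libraries, depth and free RNA, so the values describe the pattern only. Between the members, r was 0.847 for Apoe with Clu and 0.743 for Apoe with Apod over the 19 sums, and 0.428 for Clu with Apod over the 39.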

How the data were processed

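UMI count matrices of 4 single-nucleus libraries, as deposited by the authors, were used, with 1 library per genotype. They were made with Cell Ranger and Seurat on mm10, per the submitters' processing notes; the handling of intronic reads is not given in the sources used here. Filtering removed barcodes under 200 genes or above 5% mitochondrial UMIs. Scrublet made 0 calls of its own, so the highest scores were removed at 0.8% per 1000 barcodes (302, 74, 261 and 271 in P301S/EKO, P301S, EKO and WT). The 2000 most variable genes, without Apoe, Clu, Apod, Apoc1, Prnp, Mapt and sex-linked genes, gave 30 principal components, 15 neighbours and 18 Leiden clusters (scanpy 1.11.5, igraph 0.11.9, Python 3.11.15). A cluster was named from at least 3 of its markers, and 2058 nuclei stayed unnamed. Intervals came from scipy 1.17.1. Listed genes needed 20 UMIs over both libraries for a ratio and all other genes 50, and a listed gene was named when its interval lay wholly beyond 1.5-fold. The code was checked on simulated data. The members and lists were chosen with earlier results of these data known.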

Additional observations from a re-analysis of the deposited data

Results flagged for a closer look

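Pairs of ratios of 4 kinds went in opposite directions, and none of these differences was tested, since each genotype had 1 library. Clu in endothelial cell-like nuclei had a log2 ratio of -0.78 for P301S/EKO over P301S and 0.44 for EKO over WT. In its parts these 2 ratios were -0.43 and -0.89 in the fibroblast sub-clusters, -0.10 and -0.76 in the endothelial sub-cluster, and -1.33 and 0.65 in the pooled mural sub-clusters. In the larger mural sub-cluster they were -0.11 and -0.55. In the smaller one they were -0.96 and 0.50, on 3 P301S/EKO nuclei and with the first interval including 0. The opposite signs thus stood in this small sub-cluster and in the pooled mural sum. Apod in the same class had -0.46 for P301S/EKO over P301S and 1.17 for EKO over WT. For the transgene, Apod there had -0.36 for P301S/EKO over EKO and 1.26 for P301S over WT. In this class the mix of sub-clusters differed between libraries, and 1 P301S nucleus held 227 Apod UMIs. Apod in microglia-like nuclei had -0.87 for P301S/EKO over P301S and 0.46 for EKO over WT, beside oligodendrocyte markers at 5337, 4731, 5661 and 3879 CPM in P301S/EKO, P301S, EKO and WT. The part of these in the ratios was not tested.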

How the results depend on the processing

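The 16 main log2 ratios were recomputed under 192 alternatives; 143 stayed within the interval of the value reported, 43 left it and 6 changed sign. The cause of these moves was not tested.
Apoe in astrocyte-like nuclei, P301S/EKO over P301S, was -6.64 as reported and -7.02 without top nuclei. EKO over WT was -6.77, and -7.40 when scaled to the class's markers. P301S over WT was 0.56, and 0.35 with median-of-ratios scaling, 0.50 with at least 500 genes per nucleus, 0.62 with each library clustered alone, 0.51 with equal weight per nucleus, 0.52 with the dentate level subtracted, 0.35 without mixed nuclei and 0.035 scaled to markers. Apoe in microglia-like nuclei, P301S/EKO over P301S, was -10.28, and -13.88 with the dentate level subtracted. P301S over WT was 2.99, and 2.91 with median-of-ratios scaling, 3.06 with equal weight, 3.44 with the dentate level subtracted, 2.88 without mixed nuclei and 2.30 scaled to markers.
Clu in astrocyte-like nuclei, P301S/EKO over P301S, was 0.19, and 0.36 with at least 500 genes, 0.41 with at least 1100 UMIs, but -0.035 with equal weight and -0.026 scaled to markers, which changes its direction. EKO over WT was 0.76, and 0.67 with at least 1100 UMIs, 0.64 with doublets kept, 0.60 with equal weight, 0.59 without mixed nuclei and 0.13 scaled to markers. P301S over WT was 1.11, and 0.90 with median-of-ratios scaling, 0.94 without mixed nuclei and 0.59 scaled to markers. P301S/EKO over EKO was 0.54, and 0.73 with at least 500 genes, 0.92 with at least 1100 UMIs, 0.42 with equal weight and 0.43 scaled to markers.
Apod in endothelial cell-like nuclei, P301S/EKO over P301S, was -0.46, and -0.86 with at least 500 genes, -0.79 with at least 1100 UMIs, -0.85 at resolution 2, -0.74 without mixed nuclei and -0.12 without top nuclei, but 0.34 in fibroblast sub-clusters and 0.12 in the endothelial sub-cluster. EKO over WT was 1.17, and 1.37 with equal weight, 0.95 in fibroblast sub-clusters, but -0.54 in the endothelial sub-cluster. P301S over WT was 1.26, and 1.08 without mixed nuclei, 0.49 in fibroblast sub-clusters, 0.71 in the endothelial sub-cluster and 1.02 without top nuclei. P301S/EKO over EKO was -0.36, and -0.65 with at least 500 genes, -0.72 without mixed nuclei, -0.12 in fibroblast sub-clusters, but 1.37 in the endothelial sub-cluster.
Median-of-ratios scaling shifted all genes by -0.21 on the log2 scale in astrocyte-like P301S over WT, by 0.15 in microglia-like P301S/EKO over P301S and by -0.11 in endothelial cell-like P301S/EKO over P301S. It moved 7 of 32 counts of genes past 1.5-fold by more than 1.5 times. All genes in astrocyte-like P301S over WT gave 323 higher and 688 lower in place of 514 and 454, and in microglia-like P301S/EKO over P301S 700 and 599 in place of 357 and 924. The lipidation list in astrocyte-like EKO over WT gave 1 higher in place of 2. With no minimum above 1 UMI, 27 of 32 counts moved, and those over all genes lay between 2297 and 5710.
With the dentate level subtracted or mixed nuclei left out, Apoe in microglia-like nuclei had no value for EKO over WT, nor for P301S/EKO over EKO. No library could be left out, since each genotype had 1. No paired analysis was possible because each genotype had 1 library. Pooled mice, differing depth between genotypes and few nuclei in the vascular sub-clusters limit all values.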
